A study of Mus musculus with 6 samples.

Results

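Stromal and myeloid chemokines were followed in whole mouse ovaries without and with the receptor for follicle-stimulating hormone. The 10 genes were Ccl2, Ccl6, Ccl7, Ccl8, Cxcl1, Cxcl12, Cxcl13, Cxcl14, Cxcl16 and Cx3cl1, of 18193 genes that a probe set names alone. Each was found by its gene symbol in the platform annotation, and where a gene had several probe sets, the brightest on average over all 6 arrays stood for it. All 10 were on the array, with 21 probe sets in all.

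The mean signal of all 10 chemokines was higher in receptor-deficient than in wild-type ovaries, but none passed the test across all genes. The signals of Cxcl13, Cxcl1, Cxcl16 and Cx3cl1 did not overlap between the groups. These 4 of 8 tested chemokines were higher without the receptor, as were 10.7% of all tested genes without overlap. Cxcl13 was dim and was tested only through its signals in receptor-deficient ovaries. A further probe set of Cxcl12 was lower in these ovaries, also without overlap. The ovaries without the receptor were unlike each other, and 1 sample had the highest Ccl6, Ccl8, Cxcl1 and Cxcl16. The same sample had the lowest Cxcl12 and Cxcl14 by the probe sets that stood for them, but not by their further probe sets. Cxcl13 had its higher signals in the other 2.

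Chemokines are small secreted or membrane-bound proteins that guide leukocytes along a gradient through receptors coupled to G proteins. They are classed by the spacing of conserved cysteines near the amino terminus as CC, CXC and CX3C types. In the ovary, chemokines made by stromal, theca, granulosa and endothelial cells are known to draw macrophages, granulocytes and lymphocytes into the tissue around ovulation and during regression of the corpus luteum.

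The tested samples came from FORKO mice, in which all variants of the follicle-stimulating hormone receptor were deleted, and the control samples from wild-type (WT) mice. All were females aged 8 months, bred from heterozygotes on the 129T2 svEmsJ background and kept without further treatment. Both ovaries were pooled for RNA, and each of the 3 FORKO and 3 WT samples was read on its own Affymetrix Mouse Genome 430 2.0 array. Titles and genotype fields set the groups. Free-text fields of the FORKO samples mention wild-type mice instead, and no other label settles this conflict. Signals of Fshr, given below, were lower in every array titled FORKO than in every array titled WT. The samples are called biological replicates, without the number of mice in each, so p-values cover only the spread among these 6 samples.

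The deposited values are MAS5 signals, 1 linear intensity per probe set. They had a trimmed mean of 80.6 to 98.4 per array, were scaled to 1 trimmed mean, and are called signals below. A log2 change is the FORKO mean minus the WT mean of log2(signal + 5.73), a scale on which dim probe sets change by less than their signals do. Probe sets with a mean signal of at least 20.4 were tested with limma, and adjusted p means the Benjamini-Hochberg value over all 22506 of them. Of these, 372 (1.65%) passed at 0.05, 238 of them higher and 134 lower in FORKO (175 higher and 171 lower with arrays scaled to the same median). Fshr, the deleted receptor, had signals of 1.20, 11.2 and 11.7 in FORKO and of 99.6, 59.4 and 119 in WT ovaries. Its log2 change was -2.90 ± 0.39 (SE; limma adjusted p = 0.0102); it missed the threshold without WT replicate 1 (limma adjusted p = 0.0526) and without WT replicate 3 (0.0598). Whether its probe set falls inside the deleted stretch is not known here. FORKO replicate 1 stood apart: its log2 values correlated at 0.934 and 0.936 with the other FORKO arrays, which correlated at 0.976 with each other, so results are also given without it. Of 10 ovary marker genes with a probe set of their own, 9 were above the dim filter and Amh was not, with signals of 0.912 to 1.06 in FORKO and 0.830 to 1.16 in WT ovaries.

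Of the 10 chemokines, 8 passed the filter on dim signals and 0 passed limma's test, where 2.14% of all 11199 tested genes passed. At an unadjusted limma p under 0.05 there were 4 of 8 (Ccl8, Cxcl1, Cxcl13 and Cxcl16), against 1882 of all 11199. All 8 had a positive log2 change, as had 47.4% of all tested genes, and their median was 0.79 against -0.02 for all tested genes. The groups did not overlap for 4 of the 8, all with FORKO higher; 22.6% of all tested genes had no overlap, 10.7% with FORKO higher. Cxcl13 passed the filter only through its FORKO arrays (WT mean 8.06) and so had to be higher there. It is part of the counts and of the median above. Of the other 7, all had a positive log2 change, 3 had an unadjusted p under 0.05 and 3 did not overlap. The 10 chemokines were chosen with earlier results of these data known, so these shares describe the list and are no independent test of it. In whole ovary RNA, more cells of a type and more RNA per cell cannot be told apart.

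**Figure D1:**
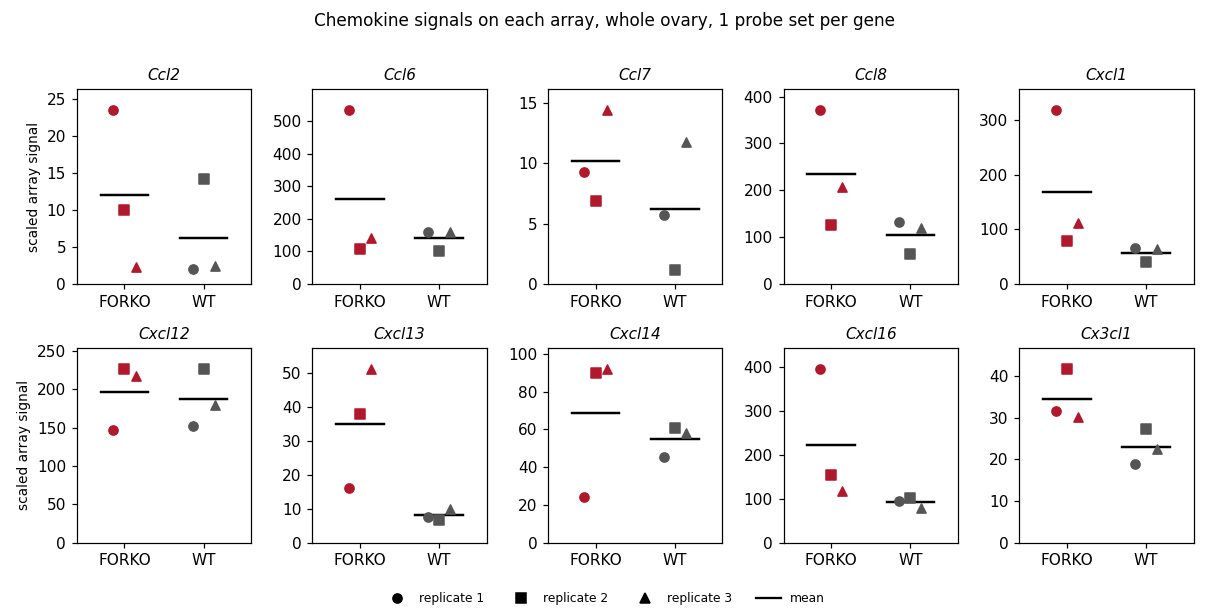
Scaled array signal of each of the 10 chemokines, with 1 point per array, FORKO left of WT, a marker shape for each replicate number and a line at the group mean; each panel has its own vertical axis from 0. FORKO replicate 1 is the highest array for Ccl2, Ccl6, Ccl8, Cxcl1 and Cxcl16 and the lowest for Cxcl12 and Cxcl14.

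Among the CC chemokines that draw monocytes, Ccl8 was measured well above the dim filter and Ccl2 and Ccl7 were below it. Ccl8 attracts monocytes and T cells, in mice through Ccr8. Its signals were 371, 126 and 207 in FORKO and 132, 64.8 and 120 in WT ovaries. FORKO replicates 1 and 3 lay above all WT arrays, and FORKO replicate 2 fell within their range. The mean was 235 ± 125 in FORKO and 105 ± 35.7 in WT (SD, n = 3 each), a ratio of 2.23, and the log2 change of 1.04 ± 0.38 (SE) did not pass (limma adjusted p = 0.237). With the replicate number as a block it passed (log2 change 1.04 ± 0.18 SE, limma adjusted p = 0.0309), in a fit in which 3.07% of all probe sets passed. No other of the 10 chemokines passed there. Without FORKO replicate 1 the log2 change of Ccl8 was 0.65 (limma adjusted p = 0.298).

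Ccl6 is a CC chemokine of mouse macrophages and other myeloid cells that acts through Ccr1. Its signals were 535, 108 and 143 in FORKO and 159, 103 and 160 in WT ovaries. FORKO replicate 1 alone lay above the WT arrays, and the other FORKO arrays were within their range. The log2 change of 0.54 ± 0.49 (SE) did not pass (limma adjusted p = 0.677), and without FORKO replicate 1 it was -0.14 ± 0.23 (SE; limma adjusted p = 0.826). A further probe set, 1420249_s_at, had the same shape, with 183, 42.3 and 45.9 in FORKO and 55.8, 42.4 and 71.6 in WT ovaries.

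Ccl2, the main monocyte attractant acting through Ccr2, had signals of 23.5, 10.03 and 2.32 in FORKO and 1.97, 14.2 and 2.42 in WT ovaries. Ccl7, a related ligand of Ccr2 and other CC receptors, had 9.29, 6.84 and 14.4 in FORKO and 5.71, 1.15 and 11.8 in WT ovaries. Both sets of values overlapped, both means were under the dim filter of 20.4, and neither gene was tested. With no filter on dim probe sets their log2 changes were 0.52 ± 0.51 and 0.49 ± 0.38 (SE; limma adjusted p = 0.788 and 0.725).

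These CC genes are neighbours on chromosome 11 in the RefSeq gene order, in a run of Ccl2, Ccl7, Ccl11, Ccl12, Ccl8 and Ccl1. In a further cluster of that chromosome, Ccl6 lies between Ccl9 and Ccl3, with Ccl5 next to Ccl9. Ccl12, another monocyte attractant, had 59.0, 17.7 and 31.3 in FORKO and 17.5, 1.04 and 18.9 in WT ovaries (log2 change 1.28, limma adjusted p = 0.302). Ccl9, a CC chemokine of myeloid cells, had 88.9, 31.1 and 46.7 in FORKO and 32.2, 36.6 and 41.6 in WT ovaries (log2 change 0.42, limma adjusted p = 0.613). As for Ccl6 and Ccl8, FORKO replicate 1 had the highest signal of both.

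Cxcl1, which draws neutrophils through Cxcr2, was higher in every FORKO array than in every WT array. Its signals were 318, 78.6 and 112 in FORKO and 65.4, 40.5 and 64.4 in WT ovaries. FORKO replicate 1 was the highest array by far, and the FORKO array nearest to the WT range was replicate 2. The mean was 169 ± 130 in FORKO and 56.7 ± 14.1 in WT (SD, n = 3 each), a ratio of 2.99. The log2 change of 1.27 ± 0.43 (SE) did not pass (limma adjusted p = 0.207). A two-sided exact permutation test of this gene gave p = 0.1, the lowest possible with 3 against 3 arrays. Without FORKO replicate 1 the change was 0.70 ± 0.25 on the log2 scale (SE; limma adjusted p = 0.176).

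The other probe sets of Cxcl1 gave the same order of groups. Probe set 1419209_at had 126, 55.2 and 59.6 in FORKO and 49.4, 20.5 and 30.7 in WT ovaries, and 1441855_x_at had 78.8, 55.2 and 55.9 in FORKO and 46.7, 29.0 and 38.0 in WT ovaries. Neither overlapped between groups, and their log2 changes were 1.11 ± 0.35 and 0.66 ± 0.23 (SE; limma adjusted p = 0.180 and 0.221).

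**Figure D2:**
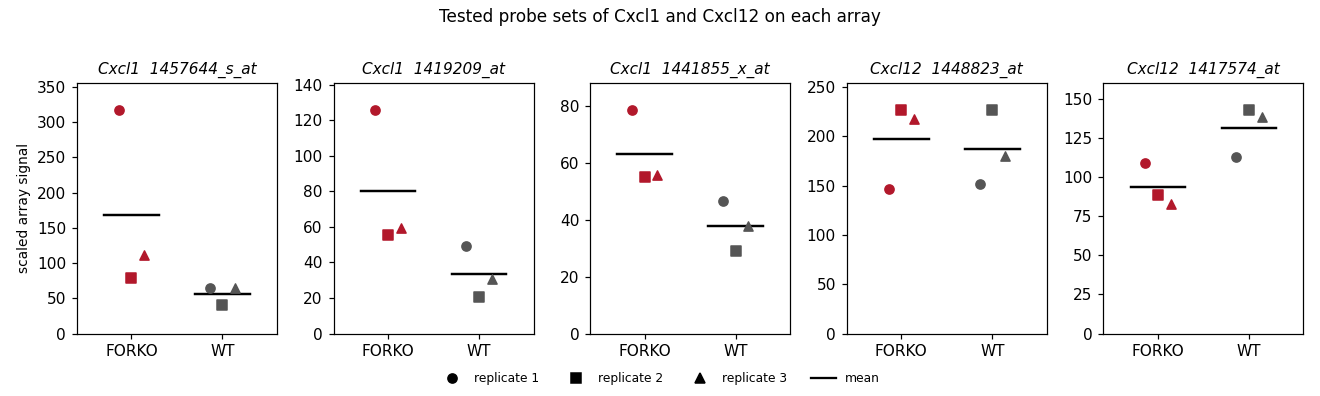
Scaled array signal of the 3 tested probe sets of Cxcl1 and the 2 of Cxcl12, with 1 point per array, FORKO left of WT and a line at the group mean; each panel has its own vertical axis from 0. The Cxcl1 panels show FORKO above WT without overlap, and the Cxcl12 panels differ, with means of 197 against 187 and of 93.3 against 131.

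The promoters of Cxcl1, Ccl8 and Cxcl13 are shown because Cxcl1 and Ccl8 shared their high array and Cxcl13 had another. Each line gives the 100 bases before the RefSeq start site on the plus strand of GRCm38.p6, 5′ to 3′, at chr5:90891145-90891244 for Cxcl1, chr11:82115085-82115184 for Ccl8 and chr5:95956839-95956938 for Cxcl13. Capitals mark matches to an NF-κB motif searched as GGGA, any pair of bases and TTCC, and to a TATA box searched as TATAAA, both on either strand.
Cxcl1: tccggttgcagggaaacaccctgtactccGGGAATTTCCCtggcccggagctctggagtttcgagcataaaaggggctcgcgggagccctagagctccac
Ccl8: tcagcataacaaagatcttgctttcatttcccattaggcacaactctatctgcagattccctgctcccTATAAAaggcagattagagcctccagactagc
Cxcl13: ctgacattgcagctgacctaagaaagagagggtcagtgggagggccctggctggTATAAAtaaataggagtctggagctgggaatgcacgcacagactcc

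The capitals in Cxcl1 are a pair of overlapping NF-κB matches on opposite strands, at bases -71 to -62 and -70 to -61 before the start site. NF-κB is the transcription factor through which cytokines and bacterial products are known to induce many chemokines. Windows of 300 bases, 250 before and 50 after the start, were at hand for 7 of the chemokines (Ccl6, Ccl8, Cxcl1, Cxcl12, Cxcl13, Cxcl14 and Cx3cl1). Of these 1 held the NF-κB motif, against 1.47% of all 32851 such mouse windows, and 3 held TATAAA, against 13.6%. GGGCGG, the GC box, was in 3 of the 7 (Cxcl12, Cxcl14 and Cx3cl1), against 35.7% of all windows. A match describes letters only; no binding was measured.

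Cxcl13, the attractant of B cells and of follicular helper T cells, was a dim gene. Its signals were 16.1, 38.0 and 51.3 in FORKO and 7.68, 6.66 and 9.85 in WT ovaries. All FORKO arrays lay above all WT arrays, and FORKO replicates 2 and 3 were the high ones. The mean was 35.1 ± 17.8 in FORKO and 8.06 ± 1.63 in WT (SD, n = 3 each), a ratio of 4.36. The log2 change of 1.46 ± 0.37 (SE) did not pass (limma adjusted p = 0.0909), with p = 0.1 in the two-sided exact permutation test. Its mean over all arrays, 21.6, was just above the filter of 20.4 and reached it only through the FORKO arrays, so its place among the tested genes was not independent of its difference; with no dim filter the limma adjusted p was 0.166. Without FORKO replicate 1 Cxcl13 passed (log2 change 1.86 ± 0.31 SE, limma adjusted p = 0.00387), in a fit in which 3.84% of all probe sets passed. It was the only one of the 10 chemokines to do so. It also passed when limma gave each array a quality weight (log2 change 1.69, limma adjusted p = 0.0157), where 3.16% of all probe sets passed, and in 2 of the 16 alternative fits in all.

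The further probe set of Cxcl13, 1448859_at, had a mean of 15.7, under the filter, and signals of 13.7, 27.7 and 17.6 in FORKO and 2.91, 12.3 and 20.1 in WT ovaries, which overlapped. Cxcr5, the receptor of Cxcl13, was under the filter, with 15.1, 5.83 and 11.2 in FORKO and 9.03, 11.3 and 10.03 in WT ovaries. Of 8 B and T cell markers with a probe set of their own, 7 were under the filter, among them the B cell genes Cd79a, Cd79b and Ms4a1. The summed signal of the 8 was 62.1 to 158 in FORKO and 65.4 to 98.2 in WT ovaries, and none was at 0 in any array. FORKO replicate 1 had the highest of these sums (158), where its Cxcl13 was the lowest of the FORKO arrays.

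**Figure D3:**
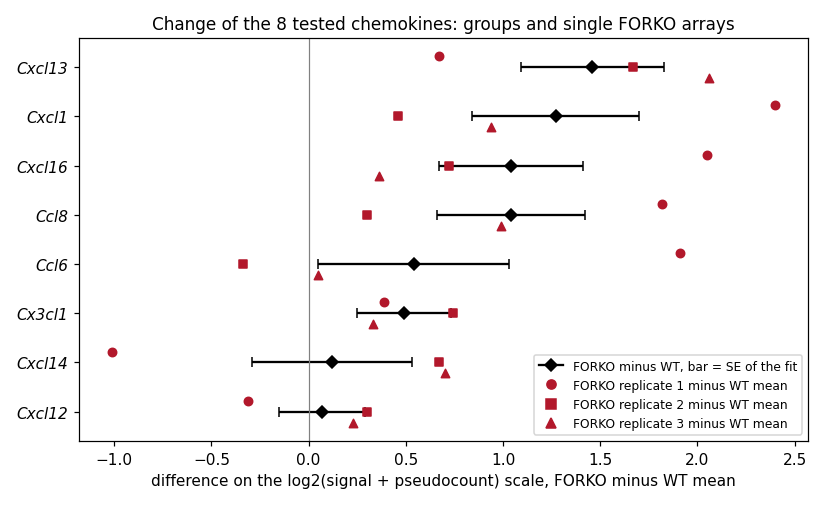
Difference from the WT mean on the log2(signal + 5.73) scale for the 8 tested chemokines, ordered by the group difference; diamonds with bars give FORKO minus WT with the SE of the limma fit, and red markers give each FORKO array. FORKO replicate 1 lies to the right of the other FORKO arrays for Cxcl1, Cxcl16, Ccl8 and Ccl6. It lies to their left for Cxcl13, Cxcl14 and Cxcl12, and for Cxcl13 it is still above the WT mean (0.67).

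Cxcl16 and Cx3cl1 are the chemokines made as membrane proteins, which hold leukocytes on the cell surface and act as attractants once cleaved. Cxcl16, which binds Cxcr6 on T cells and also takes up oxidised lipoprotein, had signals of 395, 153 and 118 in FORKO and 93.8, 101 and 79.1 in WT ovaries. All FORKO arrays lay above all WT arrays, with FORKO replicate 1 well above the rest. The mean was 222 ± 151 in FORKO and 91.3 ± 11.2 in WT (SD, n = 3 each), a ratio of 2.43, and the log2 change of 1.04 ± 0.37 (SE) did not pass (limma adjusted p = 0.231). A further probe set, 1449195_s_at, had 263, 124 and 105 in FORKO and 96.9, 60.1 and 51.6 in WT ovaries and did not overlap either (log2 change 1.11 ± 0.34, SE; limma adjusted p = 0.165). Without FORKO replicate 1 the log2 change of Cxcl16 was 0.54 (limma adjusted p = 0.214).

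Cx3cl1, fractalkine, the ligand of Cx3cr1 on monocytes and macrophages, had signals of 31.7, 41.8 and 30.1 in FORKO and 19.0, 27.3 and 22.6 in WT ovaries. The groups did not overlap, and here the 3 FORKO arrays were close to each other. The mean was 34.5 ± 6.32 in FORKO and 23.0 ± 4.15 in WT (SD, n = 3 each), a ratio of 1.50, and the log2 change of 0.49 ± 0.24 (SE) did not pass (limma adjusted p = 0.386). The other 3 probe sets of Cx3cl1 were under the filter. Cx3cl1 lies between Ccl22 and Ccl17 on chromosome 8. Ccl17, a T cell attractant, had 63.5, 28.2 and 41.4 in FORKO and 3.22, 16.2 and 28.6 in WT ovaries (log2 change 1.34, limma adjusted p = 0.219). Ccl22, which shares its receptor Ccr4, was under the filter, with 63.7, 13.4 and 15.1 in FORKO and 10.9, 4.48 and 11.6 in WT ovaries. Both neighbours were highest in FORKO replicate 1, whereas Cx3cl1 was highest in FORKO replicate 2.

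Cxcl12 and Cxcl14 are homeostatic chemokines, made by stromal and epithelial cells without an inflammatory stimulus. Cxcl12, which acts through Cxcr4 and is scavenged by Ackr3, had signals of 147, 227 and 217 in FORKO and 152, 227 and 180 in WT ovaries. The ranges coincided almost wholly, and the log2 change of 0.07 ± 0.22 (SE) did not pass (limma adjusted p = 0.923). A further probe set, 1417574_at, went the other way, with 109, 88.7 and 82.7 in FORKO and 113, 143 and 138 in WT ovaries. There every FORKO array was lower than every WT array, and the log2 change of -0.47 ± 0.19 (SE) did not pass (limma adjusted p = 0.280). Cxcl12 is known to have splice forms with different 3′ ends; which of them each probe set reads is not known here. The direction for Cxcl12 therefore depends on the probe set chosen to stand for the gene.

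Cxcl14, an attractant of monocytes and dendritic cells, had signals of 24.2, 90.0 and 92.1 in FORKO and 45.5, 60.6 and 58.0 in WT ovaries. The WT arrays lay between FORKO replicate 1 below them and FORKO replicates 2 and 3 above them. The log2 change of 0.12 ± 0.41 (SE) did not pass (limma adjusted p = 0.927), and without FORKO replicate 1 it was 0.69 ± 0.21 (SE; limma adjusted p = 0.109). The further probe set, 1418456_a_at, had 29.0, 55.6 and 110 in FORKO and 55.5, 26.7 and 67.8 in WT ovaries, and overlapped.

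The spread within the FORKO group was larger than within WT for all 8 tested chemokines on the log2 scale, as for 56.0% of all tested genes. FORKO replicate 1 was the highest of the 6 arrays for 4 of the 8, against 21.6% of all tested genes, and the lowest for 2, against 25.9%. The median change of the 8 from the WT mean was 1.24, 0.57 and 0.53 on the log2 scale in FORKO replicates 1, 2 and 3. As no chemokine passed, likeness was sought for Ccl6, whose probe set was the brightest, and its pattern over the 6 arrays was most like those of Etv3, an ETS-family repressor, Pxylp1, a xylose phosphatase of proteoglycan synthesis, and Cblb, a ubiquitin ligase. Their Pearson correlations of log2 values with Ccl6 were 0.991, 0.991 and 0.989, with Spearman's rho of 0.943, 0.943 and 0.829. These are descriptions over arrays of which 1 is far from the others.

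The receptors gave 1 call. Of 23 chemokine receptor genes, 21 had a probe set of their own and 7 were above the filter. Of these 1 rose, 0 fell and 6 did not pass, where 2.14% of all tested genes passed. The median change was 0.30. Ccrl2, a non-signalling receptor that presents chemerin, rose, with 86.9, 81.0 and 91.4 in FORKO and 32.5, 27.5 and 38.8 in WT ovaries (log2 change 1.26 ± 0.19, SE; limma adjusted p = 0.0155). The groups were far apart, and the FORKO arrays were alike. Ccrl2 missed the threshold without FORKO replicate 3 (limma adjusted p = 0.0656), WT replicate 1 (0.0638) or WT replicate 2 (0.0762). Cxcr6, the receptor of Cxcl16, had 76.4, 30.6 and 29.4 in FORKO and 19.8, 14.5 and 18.6 in WT ovaries, which did not overlap (log2 change 1.02 ± 0.34, SE; limma adjusted p = 0.198); its WT mean of 17.6 was under the filter. Cxcl16 and Cxcr6 thus had their highest signals in the same array.

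The receptors of the monocyte attractants did not part the groups. Ccr2 had 85.9, 27.2 and 19.6 in FORKO and 37.9, 30.9 and 32.6 in WT ovaries (log2 change 0.11, limma adjusted p = 0.939). Ccr1 was under the filter, with 44.4, 9.75 and 12.4 in FORKO and 8.51, 20.0 and 21.2 in WT ovaries. In both, FORKO replicate 1 lay above the WT arrays. The other FORKO arrays lay below all WT arrays for Ccr2 and within their range for Ccr1. Cx3cr1 had 92.6, 116 and 110 in FORKO and 78.3, 71.2 and 109 in WT ovaries (log2 change 0.30, limma adjusted p = 0.570).

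Cxcr4, the receptor of Cxcl12, had 54.0, 32.9 and 23.0 in FORKO and 31.9, 39.6 and 35.1 in WT ovaries (log2 change -0.02, limma adjusted p = 0.983). Ackr3 had 222, 332 and 249 in FORKO and 269, 227 and 178 in WT ovaries (log2 change 0.24, limma adjusted p = 0.665). Neither separated the groups. Cxcr2, the receptor of Cxcl1, was near the lower limit in all arrays, with 1.20 to 3.49 in FORKO and 1.66 to 6.25 in WT ovaries. Ccr8 had 0.951 to 4.48 in FORKO and 0.311 to 1.25 in WT ovaries, likewise under the filter.

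**Figure D4:**
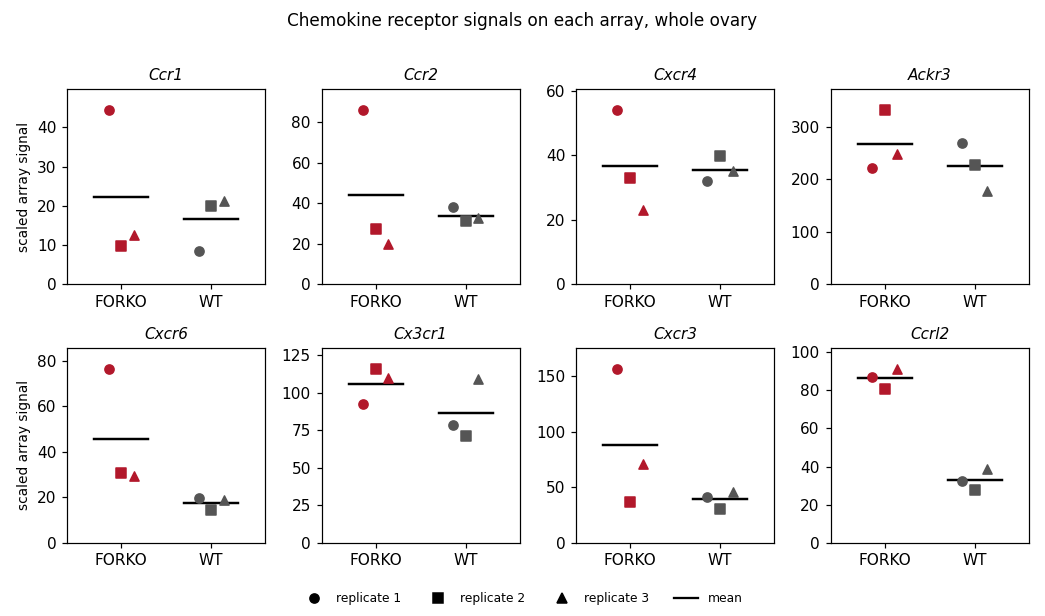
Scaled array signal of the 7 chemokine receptors above the dim filter and of Ccr1, with 1 point per array, FORKO left of WT and a line at the group mean; each panel has its own vertical axis from 0. Ccrl2 shows 2 tight, separate groups, and Ccr2, Ccr1, Cxcr4, Cxcr6 and Cxcr3 have FORKO replicate 1 as their highest array.

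Among 28 other chemokine genes, 25 had a probe set of their own and 9 were above the filter. Of these 0 passed limma's test and 5 had an unadjusted p under 0.05, against 1882 of all 11199 tested genes. A positive log2 change was found for 8, against 47.4% of all tested genes, and the median of the 9 was 1.05. Of the 9, 4 (Ccl5, Ccl12, Ccl17 and Cxcl9) reached the filter only through FORKO, their WT means being under it. They had to be higher there, and they are part of the median of 1.05. Of the other 5, 4 had a positive change and 1, Ccl27a, had an unadjusted p under 0.05. Ccl27a had 74.8, 61.6 and 56.1 in FORKO and 35.9, 36.3 and 36.7 in WT ovaries (log2 change 0.72, limma adjusted p = 0.109). Cxcl9, a T cell attractant induced by interferon gamma, had 269, 18.1 and 61.0 in FORKO and 4.67, 5.62 and 4.39 in WT ovaries (log2 change 2.84 ± 0.69, SE; limma adjusted p = 0.0848), with a WT mean of 4.89, below the added 5.73. Ccl5, a T cell and monocyte attractant, had 212, 27.3 and 56.5 in FORKO and 23.8, 12.7 and 10.03 in WT ovaries (log2 change 1.90 ± 0.58, SE; limma adjusted p = 0.158), with a WT mean of 15.5. FORKO replicate 1 was the highest array for both, as for Cxcl1 and Cxcl16.

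Among 16 inducers, cytokines and NF-κB genes that act upstream of chemokines, 15 had a probe set of their own and 11 were tested. Of these 0 passed limma's test and 6 had an unadjusted p under 0.05, against 1882 of all 11199 tested genes. Of the 11, 10 had a positive change, against 47.4% of all tested genes, and the median was 0.56. Nfkb2, an NF-κB subunit of the pathway downstream of lymphotoxin, had 40.8, 37.1 and 31.6 in FORKO and 11.2, 28.4 and 8.33 in WT ovaries (log2 change 1.06, limma adjusted p = 0.180). Tnfaip3, the NF-κB target that limits the pathway, had 201, 56.5 and 78.8 in FORKO and 43.5, 55.0 and 47.3 in WT ovaries (log2 change 0.93, limma adjusted p = 0.294). Neither overlapped between groups, and FORKO replicate 1 was again the highest array for both. Nfkb2 and Il1b reached the filter only through FORKO, and of the other 9 genes 4 had an unadjusted p under 0.05. The cytokine genes Tnf, Il1a, Il6 and Lta were under the filter.

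Of 6 proteases that cleave chemokines, 5 were tested, 0 passed limma's test and 0 had an unadjusted p under 0.05; the median change was 0.02 and was negative, at -0.06, with arrays scaled to the same median. Adam10, which sheds Cxcl16 and Cx3cl1 from the cell surface, had 942, 1231 and 1243 in FORKO and 1071, 1204 and 1100 in WT ovaries. Mmp2, which inactivates several chemokines, had 243, 849 and 867 in FORKO and 573, 1255 and 1005 in WT ovaries (log2 change -0.66, limma adjusted p = 0.575), and Dpp4, which trims Cxcl12, had 60.7, 20.5 and 24.7 in FORKO and 16.5, 18.5 and 21.4 in WT ovaries (log2 change 0.62, limma adjusted p = 0.463; WT mean 18.8, under the filter). All 5 tested proteases overlapped between groups. Mmp9, a gelatinase, was under the filter and did not overlap, with 39.6, 15.0 and 26.5 in FORKO and 13.7, 5.83 and 7.61 in WT ovaries.

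Marker lists of cells that make or follow chemokines differed in where FORKO replicate 1 stood. Of 13 macrophage and monocyte markers with a probe set of their own, 12 were tested and 0 passed limma's test. At an unadjusted p under 0.05 there were 2, against 1882 of all 11199 tested genes. All 12 had a positive change, against 47.4% of all tested genes. The summed signal of the 13 was 2545 to 5493 in FORKO and 2644 to 2987 in WT ovaries. Their median change from the WT mean was 0.85, -0.07 and 0.01 in FORKO replicates 1, 2 and 3. In FORKO replicate 1 Mrc1 and Cd163, scavenger receptors of macrophages, were only 0.08 and 0.10 above the WT mean on the log2 scale, and Itgam, an integrin under the filter, was at -0.25. Cd14, a receptor for bacterial products, had 194, 121 and 103 in FORKO and 77.3, 66.7 and 51.7 in WT ovaries (log2 change 0.99, limma adjusted p = 0.0989; 0.0298 with the replicate block), and C1qa, a complement gene of macrophages, had 203, 132 and 188 in FORKO and 99.3, 91.4 and 164 in WT ovaries (log2 change 0.56, limma adjusted p = 0.353). No macrophage marker was at 0. Their part in the chemokine signals was not tested.

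Of the neutrophil markers, 6 had a probe set of their own and 5 of these, S100a8, S100a9, Mpo, Elane and Ngp, were under the filter. Camp, the antimicrobial peptide gene that was tested, had 4.26, 78.4 and 44.7 in FORKO and 0.830, 37.3 and 23.6 in WT ovaries (log2 change 0.79, limma adjusted p = 0.734). The summed signal of the 6 was 22.3 in FORKO replicate 1, the array highest in Cxcl1. It was 88.0 and 101 in the other FORKO arrays, against 24.7 to 67.9 in WT ovaries. Camp was the largest part of the sums in FORKO replicates 2 and 3, and the other 5 genes had mean signals of 2.90 to 7.09. The sums of those 2 arrays thus rest largely on 1 gene, and the number of neutrophils was not measured.

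Surface epithelium and mesothelium markers included 2 calls. All 7 were tested and had a positive change, against 47.4% of all tested genes. Of these 2 rose and 5 did not pass, where 2.14% of all tested genes passed. The median was 0.96, and 1.53, 0.28 and 0.67 in FORKO replicates 1, 2 and 3. Krt8, a keratin of simple epithelia, had 523, 530 and 536 in FORKO and 266, 278 and 211 in WT ovaries (log2 change 1.07, limma adjusted p = 0.0155), and its partner Krt18 had 382, 260 and 251 in FORKO and 153, 107 and 129 in WT ovaries (log2 change 1.15, limma adjusted p = 0.0321). Krt8 missed the threshold without FORKO replicate 3 (limma adjusted p = 0.0584) or WT replicate 1, 2 or 3 (0.0532, 0.0567 and 0.0642), and Krt18 did with arrays scaled to the same median (0.0552), with no intensity trend (0.0529) and without any array but FORKO replicate 1 (0.0534 to 0.149). Msln reached the filter only through FORKO. The summed signal of the 7 was 1317 to 2305 in FORKO and 762 to 890 in WT ovaries. Endothelial markers gave 0 calls of 4 tested by limma, with 1 at an unadjusted p under 0.05, against 1882 of all 11199 tested genes. Their median was 0.23, and 0.12, 0.42 and 0.43 in FORKO replicates 1, 2 and 3. Vwf, the von Willebrand factor gene, had 387, 177 and 191 in FORKO and 134, 110 and 89.3 in WT ovaries (log2 change 1.07, limma adjusted p = 0.118; 0.0317 with the replicate block), and Kdr, a receptor for vascular endothelial growth factor, had 247, 233 and 235 in FORKO and 190, 219 and 166 in WT ovaries. The summed signal of the 6 endothelial markers was 612 to 771 in FORKO and 430 to 511 in WT ovaries. The part of either cell type in the chemokine signals was not tested.

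Fibroblast and stroma markers had a negative median of -0.39, and of 8 tested 0 passed limma's test. A positive change was found for 3 of the 8. At an unadjusted p under 0.05 there were 5, against 1882 of all 11199 tested genes. Of those 5, Lum, Pdgfrb and Col1a1 had a negative change and Dcn and Pdgfra a positive one. Lum, a matrix proteoglycan, had 70.8, 494 and 485 in FORKO and 612, 1169 and 1128 in WT ovaries (log2 change -1.82, limma adjusted p = 0.212; 0.0368 with the replicate block). Col1a1, a fibrillar collagen, had 34.3, 93.8 and 111 in FORKO and 101, 161 and 178 in WT ovaries (log2 change -0.94, limma adjusted p = 0.289). Both were lowest in FORKO replicate 1, the array lowest in Cxcl12 and Cxcl14 by the probe sets that stood for them. Dcn, another matrix proteoglycan, had 4537, 3686 and 4235 in FORKO and 3031, 2822 and 3103 in WT ovaries (log2 change 0.47, limma adjusted p = 0.105). Pdgfra, a growth factor receptor of stromal cells, had 1211, 1010 and 1191 in FORKO and 739, 840 and 922 in WT ovaries (log2 change 0.45, limma adjusted p = 0.204). Neither overlapped, and both were highest in FORKO replicate 1. The summed signal of the 8 was 8799 to 11750 in FORKO and 9660 to 11736 in WT ovaries, and their part in the chemokine signals was not tested.

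Of 4 lymphoid stroma markers with a probe set of their own, 3 were under the filter (Cr2, Madcam1 and Glycam1). Cr2, a complement receptor of B cells and follicular dendritic cells, had 9.18, 11.2 and 8.87 in FORKO and 1.25, 1.56 and 1.79 in WT ovaries, which did not overlap. Madcam1 and Glycam1, ligands for homing lymphocytes, differed by 0.33 and 0.43 on the log2 scale and overlapped. Tnfsf11, which encodes RANKL, was tested and had 18.4, 18.0 and 13.4 in FORKO and 192, 34.9 and 107 in WT ovaries (log2 change -2.13, limma adjusted p = 0.0624). The groups did not overlap, with FORKO lower. Tnfsf11 reached the filter only through WT (FORKO mean 16.6), so its test was not independent of the filter; it passed in 6 of the 16 alternative fits. Cd3g, the T cell gene that was tested, had 57.3, 14.6 and 21.5 in FORKO and 26.7, 17.7 and 13.4 in WT ovaries (log2 change 0.42, limma adjusted p = 0.708; WT mean 19.3, under the filter). Ovgp1, a marker of oviduct, had 27.2, 247 and 184 in FORKO and 32.8, 12.7 and 34.4 in WT ovaries (log2 change 1.93, limma adjusted p = 0.210; 0.0227 with array weights and 2.24e-04 without FORKO replicate 1). FORKO replicates 2 and 3, the arrays high in Ovgp1, were also those high in Cxcl13 and Cxcl14 by the probe sets standing for them. The part of oviduct RNA in those signals was not tested. The fat markers Adipoq and Lep were under the filter. Adipoq had 0.984, 1.19 and 2.85 in FORKO and 12.9, 13.6 and 12.5 in WT ovaries, which did not overlap. Lep had 4.92, 1.37 and 0.528 in FORKO and 11.7, 1.46 and 1.25 in WT ovaries, which overlapped. The part of fat in the chemokine signals was not tested.

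Of 9 tested ovary markers 0 passed limma's test and 6 had an unadjusted p under 0.05, against 1882 of all 11199 tested genes. A positive change was found for 3 of the 9. The median was -0.62, and -1.14, -0.50 and -0.21 in FORKO replicates 1, 2 and 3. Inhba, a subunit of inhibins and activins, had 54.2, 3867 and 3756 in FORKO and 4332, 2046 and 2931 in WT ovaries. Gdf9, an oocyte growth factor, had 48.1, 123 and 126 in FORKO and 255, 199 and 256 in WT ovaries (log2 change -1.31, limma adjusted p = 0.0859; 0.0465 with array weights and 0.0209 without FORKO replicate 1). FORKO replicate 1 was lowest for both, as for the probe sets that stood for Cxcl12 and Cxcl14. Amhr2, the receptor of anti-Müllerian hormone, went the other way without overlap, with 2841, 2128 and 2941 in FORKO and 1652, 1550 and 1745 in WT ovaries (log2 change 0.66, limma adjusted p = 0.0697). It passed with quantile normalization (limma adjusted p = 0.0304), with the replicate block (0.0346) and without FORKO replicate 2 (0.0382), and 2 further probe sets of Amhr2 passed (log2 changes 0.98 and 0.76, limma adjusted p = 0.0349 and 0.0418).

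**Figure D5:**
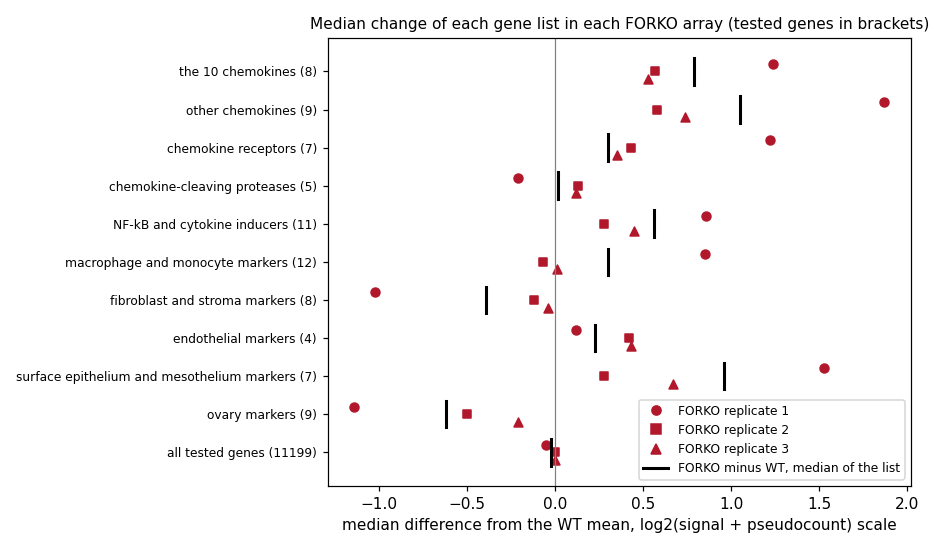
Median difference from the WT mean on the log2(signal + 5.73) scale over the tested genes of each list with at least 4 tested genes, with the number of tested genes in brackets; red markers are the 3 FORKO arrays and black bars the median of the group difference. The 10 chemokines, of which 8 were tested, have medians of 1.24, 0.57 and 0.53 in FORKO replicates 1, 2 and 3, and all tested genes lie near 0. The medians include genes that reached the dim filter only through FORKO, such as Cxcl13 and 4 of the 9 other chemokines.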

How the data were processed

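The deposited values are array intensities, MAS5 signals per the submitters' processing notes, with no scaling target or detection calls given here. Each array was scaled to 1 trimmed mean (2% off each end), and log2(signal + 5.73), the pooled 25th percentile, was taken. The 64 control probe sets and those with a mean signal under 20.4 were left out. The remaining 22506 were fitted with limma 3.58.1 in R 4.3.3 (lmFit, eBayes with an intensity trend, two-sided). The fit was tested on simulated data with 200 changed probe sets in each of 10 runs. It recovered 28.4% of log2 changes of 1 and 81.1% of log2 changes of 2, and 3.92% of its calls were false. A log2 change of 1 that did not pass is therefore not shown to be absent.

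Symbols came from the platform annotation (34958 probe sets with 1 symbol, 932 with several, 9211 with none listed), of which 34754 matched RefSeq genes (GRCm38.p6); genes were named only from probe sets with 1 symbol. Promoters are RefSeq's. The members and lists were chosen with earlier results of these data known. Besides the members, genes were named by rule. These were Fshr, per list up to 4 that passed or else the 2 largest changes, and the 3 genes most like the brightest member. Further chemokines, receptors, neighbours, proteases and markers were chosen after their values were seen.

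Deviations from the group means correlated at r = 0.195, 0.134 and 0.358 between FORKO and WT arrays with the same number. Between arrays with different numbers they correlated at -0.215 to 0.0132. The labels do not tie the numbers to pairs, so the main fit had no block. Only the replicate block, an alternative fit, took the numbers as pairs. The number of arrays limits the precision. Alternatives covered normalization, pseudocount, dim filter, variance model, replicate block, left-out arrays and probe set.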

Additional observations from a re-analysis of the deposited data

How the results depend on the processing

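The count of probe sets that passed, 372, was 221 with no dim filter, 191 with a stricter one, 712 with array weights, 691 with the replicate block and 62 to 864 with 1 array left out. The count that passed among the 10 chemokines was 0. It was 1 with array weights (Cxcl13, log2 change 1.69, limma adjusted p = 0.0157) and 1 with the replicate block (Ccl8). With 1 array left out it was 0 to 1, and it was 0 in the other alternatives run. Of the listed other genes 3 passed (Ccrl2, Krt8 and Krt18), against 5 with the values as deposited, 7 with array weights, 10 with the replicate block and 0 to 7 with 1 array left out. Fshr had log2 changes of -3.17 to -2.46 with 1 array left out. With 1 array left out, the log2 change of Ccl6 was -0.14 to 0.98 (below 0 without FORKO replicate 1), that of Cxcl12 -0.06 to 0.26 (also -0.04 and -0.01) and that of Cxcl14 -0.17 to 0.69 (also -0.15). With the next probe set it was -0.47 for Cxcl12 and -0.36 for Cx3cl1, there under the dim filter. With arrays scaled to the same median the log2 change of Cxcl12 was just below 0, at -0.00. The cause of these turned signs was not tested. The median of the tested chemokines was 0.72 to 0.82 under the other normalizations and pseudocounts, and 0.59 to 1.09 with 1 array left out. The replicate block changed no other call among the 10 chemokines. Dim signals left Ccl2 and Ccl7 untested, and Cxcl13 was under the filter in WT.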
